A study of Mus musculus with 2 samples.

Results

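The transcripts of 38 cell cycle genes, out of 27998 genes counted, were followed in single cells of the mouse abdominal aorta. The list was chosen by function and holds 15 genes of DNA replication, called S genes here, and 23 genes of late interphase and mitosis, called G2/M genes here. All 38 were detected in both libraries. The animals were wild-type C57BL/6J mice given either LCWE, the Lactobacillus casei cell wall extract that induces a vasculitis used as a model of Kawasaki disease, or PBS. Their abdominal aortas were taken 2 weeks after the injection, pooled as 7 aortas for the LCWE library and 9 aortas for the PBS library, digested with enzymes, depleted of dead cells and profiled with 10x Genomics 3′ chemistry V3. The age of the animals is not given in the sources used here.

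A dividing cell copies its DNA in S phase and separates the copies in mitosis, and most genes of the machinery are transcribed only in the phase that needs them. E2F factors switch on the replication genes when a cell commits to division, and a later wave, through NF-Y, MYB and FOXM1, switches on cyclins, mitotic kinases and spindle proteins. Cells of the healthy artery wall are mostly quiescent, whereas stromal, endothelial and immune cells of an inflamed vessel can re-enter the cycle.

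The LCWE library held 5091 cells with 42275754 unique molecular identifiers (UMIs, each standing for 1 captured transcript molecule) and a median of 5508 UMIs per cell (1613 to 47579). The PBS library held 5386 cells with 62600808 UMIs and a median of 11252.5 UMIs per cell (1671 to 41518). With 1 library per group there is no replicate check and no test between groups. Intervals below are exact 95% intervals (Poisson for levels, Clopper-Pearson for shares, conditional binomial for ratios) and cover counting error only. The libraries shared 8 cell barcodes, and 3 cells with a shared barcode carried 5 or more list UMIs. The cell classes are those of the authors' deposited annotation, 9 broad and 25 fine. Their clusters were made from all genes, these 38 included, so a contrast between classes is a description. Smooth muscle cells made up 4141 of the PBS cells and 93 of the LCWE cells, so whole-library values mix cell composition with levels within a class.

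Cell cycle transcripts were more abundant in the LCWE aortas, and more so for mitosis than for replication. Over all cells, the 38 genes held 25375 UMIs or 600.2 CPM, counts per 1000000 UMIs (592.9 to 607.7), in LCWE and 10392 UMIs or 166.0 CPM (162.8 to 169.2) in PBS. The LCWE level was 3.62-fold the PBS level (3.53 to 3.70). G2/M genes reached 305 CPM in LCWE and 57.8 CPM in PBS, a ratio of 5.28 (5.09 to 5.48), and S genes 295 CPM in LCWE and 108 CPM in PBS, a ratio of 2.73 (2.65 to 2.81).

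In both libraries the G2/M transcripts were gathered in a few cells, and the S transcripts were spread more widely. Of the authors' classes, 2 are named proliferating, one stromal and one of T cells, and a fine class named only Mono/Mac/DC joined them by its content. That class was thus chosen by the listed genes themselves. The shares held by the 3 classes, here and below, follow in part from that choice and are a description only. These 3 classes held 128 LCWE cells with 13805 list UMIs (107.9 per cell) and 20 PBS cells with 3440 list UMIs (172.0 per cell). They held 54.4% of the list UMIs in LCWE and 33.1% in PBS. Of the G2/M UMIs they held 76.5% in LCWE and 80.3% in PBS, and of the S UMIs 31.6% in LCWE and 7.90% in PBS. Smooth muscle held 52.6% of the PBS list UMIs. Outside them the list stood at 290 CPM in LCWE and 112 CPM in PBS, a ratio of 2.60 (2.52 to 2.68). The G2/M genes alone stood there at 76.1 CPM in LCWE and 11.4 CPM in PBS, a ratio of 6.65 (6.13 to 7.23).

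Within the proliferating stromal class, the 41 LCWE cells carried from 3 to 375 list UMIs with a median of 115, and the 15 PBS cells from 24 to 372 with a median of 217. The ranges overlapped almost fully. The G2/M genes gave a median of 77 UMIs per LCWE cell (3 to 355) and 164 per PBS cell (15 to 362), while the S genes gave 20 (0 to 94) in LCWE and 14 (5 to 58) in PBS. Most cells leaned to mitosis: S UMIs exceeded G2/M UMIs in 6 of 41 LCWE cells and 2 of 15 PBS cells. The pooled list level was 4922 CPM in LCWE and 9752 CPM in PBS, a ratio of 0.505 (0.482 to 0.529). That gap lay in the G2/M genes (ratio 0.449, 0.427 to 0.473), since the S genes stood at 1084 CPM in LCWE and 1209 CPM in PBS (ratio 0.896, 0.794 to 1.01). The spread between cells is not part of these intervals.

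The 65 proliferating T cells of the LCWE library carried 9 to 360 list UMIs with a median of 89, and the 4 PBS cells carried 128 to 146 with a median of 137.5. Among the LCWE cells of the 3 classes, replication weighed most in these T cells. Their S level was 2288 CPM, against 1084 CPM in the LCWE proliferating stroma and 1383 CPM in the LCWE Mono/Mac/DC cells, and S UMIs exceeded G2/M UMIs in 19 of 65 cells. The G2/M levels of the 3 classes lay closer together, at 4206 CPM in LCWE proliferating T cells, 3838 CPM in LCWE proliferating stroma and 4212 CPM in LCWE Mono/Mac/DC cells. The 22 LCWE cells of the Mono/Mac/DC class carried 8 to 258 list UMIs, with a median of 102.5, and each held 5 or more. Its single PBS cell carried 108.

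**Figure D1:**
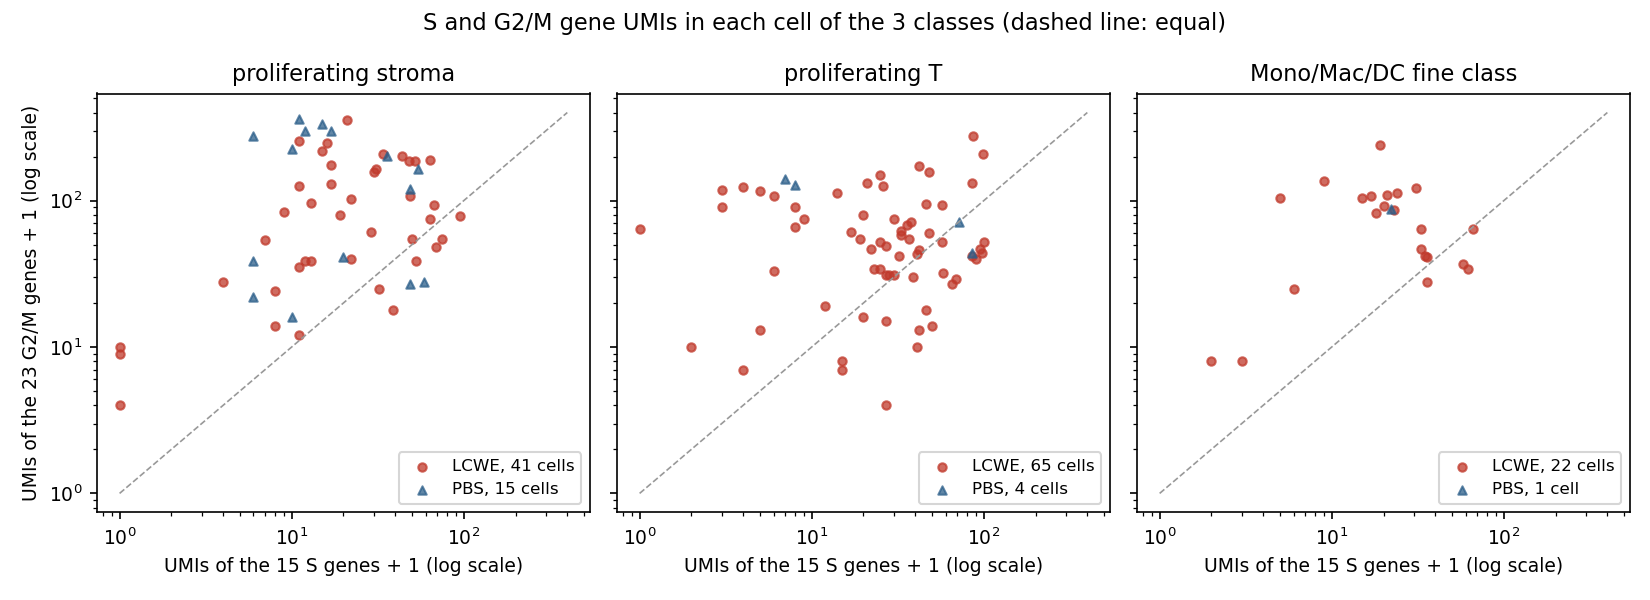
UMIs of the 23 G2/M genes plus 1 (vertical axis, log scale) against UMIs of the 15 S genes plus 1 (horizontal axis, log scale) in each cell of the proliferating stroma, the proliferating T cells and the Mono/Mac/DC fine class; circles are LCWE cells, triangles PBS cells, and the dashed line marks equal values. Most points lie above the line, and 19 of the 65 LCWE proliferating T cells lie below it.

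The replication genes of the list fall into origin licensing, the helicase, nucleotide supply and chromatin. Mcm2 to Mcm7 encode the subunits of the replicative helicase, which Cdc6 and Cdt1 load onto origins, and Gins2 belongs to the complex that activates it. In the 65 LCWE proliferating T cells, Mcm6 gave 241 UMIs (median 3 per cell, up to 18), Mcm3 245 and Mcm5 207. Cdc6 gave 57 UMIs in the same cells, against 9 in the 41 LCWE proliferating stromal cells and 4 in the 15 PBS proliferating stromal cells. Pcna, the sliding clamp of the DNA polymerases, gave 178 UMIs in LCWE proliferating T cells. Rrm1 and Rrm2, the subunits of the reductase that makes deoxyribonucleotides, gave 195 and 157 UMIs in LCWE proliferating stroma and 62 and 26 in PBS proliferating stroma. Tyms, thymidylate synthase, gave 142 UMIs in LCWE proliferating stroma.

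The G2/M genes encode cyclins and kinases, chromosome and spindle proteins, and parts of the anaphase-promoting pathway. Top2a, the topoisomerase that disentangles sister chromatids, gave 440 UMIs in LCWE proliferating stroma (median 8 per cell, 0 to 38) and 290 in PBS proliferating stroma (median 19, 0 to 50). Ube2c, the E2 enzyme of the anaphase-promoting complex, gave 544 UMIs in LCWE proliferating stroma (median 4, 0 to 72) and 335 in PBS proliferating stroma (median 12, 0 to 63). Both genes overlapped widely between the libraries, with cells at 0 in each. Mki67, a coat protein of mitotic chromosomes used as a proliferation marker, gave 345 UMIs in LCWE proliferating stroma (median 7, 0 to 29) and 245 in PBS proliferating stroma (median 13, 0 to 49). Cenpf, a kinetochore protein, gave 289 UMIs in LCWE proliferating stroma and 238 in PBS proliferating stroma (median 10, 0 to 49). Cdk1, the kinase that drives entry into mitosis, gave 203 UMIs in LCWE proliferating stroma (median 2, 0 to 22, with 6 cells at 0) and 116 in PBS proliferating stroma (median 6, 0 to 20, with 1 cell at 0).

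The same mitotic genes were found in the immune classes. LCWE proliferating T cells held 592 Ube2c UMIs (median 5, 0 to 42), 560 of Top2a (median 7, 0 to 36), 480 of Birc5 and 440 of Mki67 (median 5, 0 to 45). Birc5, or survivin, belongs with Aurkb to the chromosomal passenger complex. The LCWE Mono/Mac/DC cells held 220 UMIs of Top2a, 215 of Ube2c, 201 of Birc5 and 145 of Mki67. In the 4 PBS proliferating T cells, Bub1, a spindle checkpoint kinase, and Iqgap3, a scaffold protein of the cell cortex, had 0 UMIs. Both were sparse in the 65 LCWE proliferating T cells too, Bub1 with 47 UMIs and 36 cells at 0, Iqgap3 with 18 UMIs and 55 cells at 0. The 4 PBS cells are too few to read these zeros as an absence.

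**Figure D2:**
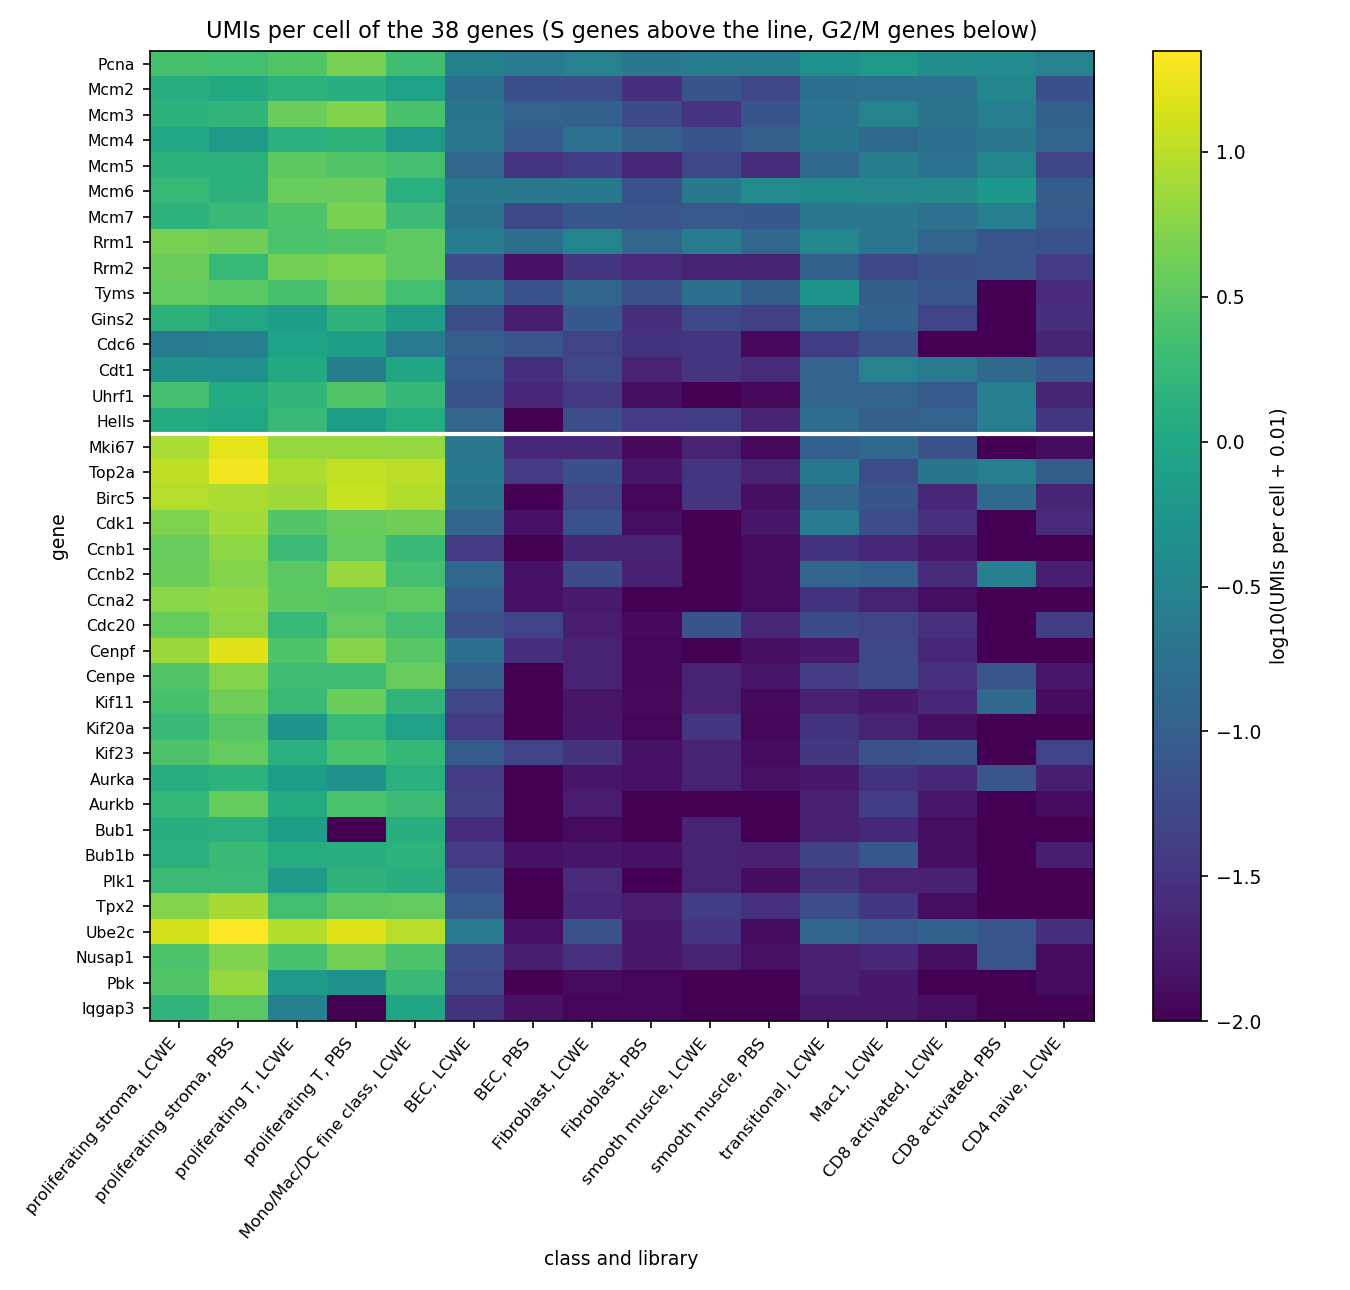
UMIs per cell of each of the 38 genes (colour, as log10 of UMIs per cell plus 0.01) in chosen classes, LCWE left of PBS where both are shown; S genes stand above the white line and G2/M genes below it. The leftmost columns, of the 3 classes, are bright for nearly all G2/M genes, and the remaining columns are dark for G2/M genes but show UMIs of S genes such as Pcna and Mcm6.

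How far a gene marked the 3 classes depended on its phase. Of the UMIs of a G2/M gene, a median of 79.7% lay in the 3 classes in LCWE and 81.5% in PBS. For the S genes the median was 35.4% in LCWE and 11.4% in PBS. In LCWE the G2/M genes ran from Kif23 (43.2%), a kinesin of the cytokinetic midzone, to Ccna2 (89.0%), which encodes cyclin A2, and the S genes from Cdt1 (14.1%) to Rrm2 (71.7%). In PBS the most gathered gene was Pbk, a mitotic kinase, with 97.1% of its 105 UMIs in the 3 classes. The least gathered was Mcm6, with 2.18% of its 1831 UMIs there.

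Several members thus gave UMIs widely outside these cells, and the part of free RNA in these UMIs was not tested. Mcm6 gave 1658 UMIs in the 4141 PBS smooth muscle cells, where it stood at 31.0 CPM, against 22.9 CPM in the 93 LCWE smooth muscle cells. Per LCWE cell, Pcna gave 0.295 UMIs in naive CD4 T cells, 0.247 in smooth muscle, 0.293 in fibroblasts and 0.289 in blood endothelial cells. Per total UMIs it stood at 95.7 CPM in LCWE activated CD8 T cells and 86.5 CPM in LCWE eosinophils, close to its 90.2 CPM in LCWE proliferating stroma. Cdt1 stood at 62.7 CPM in LCWE NK cells and 59.8 CPM in LCWE B cells, against 71.7 CPM in LCWE proliferating T cells. Kif23 stood at 27.9 CPM in LCWE eosinophils, against 98.6 CPM in LCWE proliferating stroma. Tpx2, a spindle assembly factor, stood at 2.93 CPM in LCWE eosinophils against 205 CPM in LCWE proliferating stroma.

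**Figure D3:**
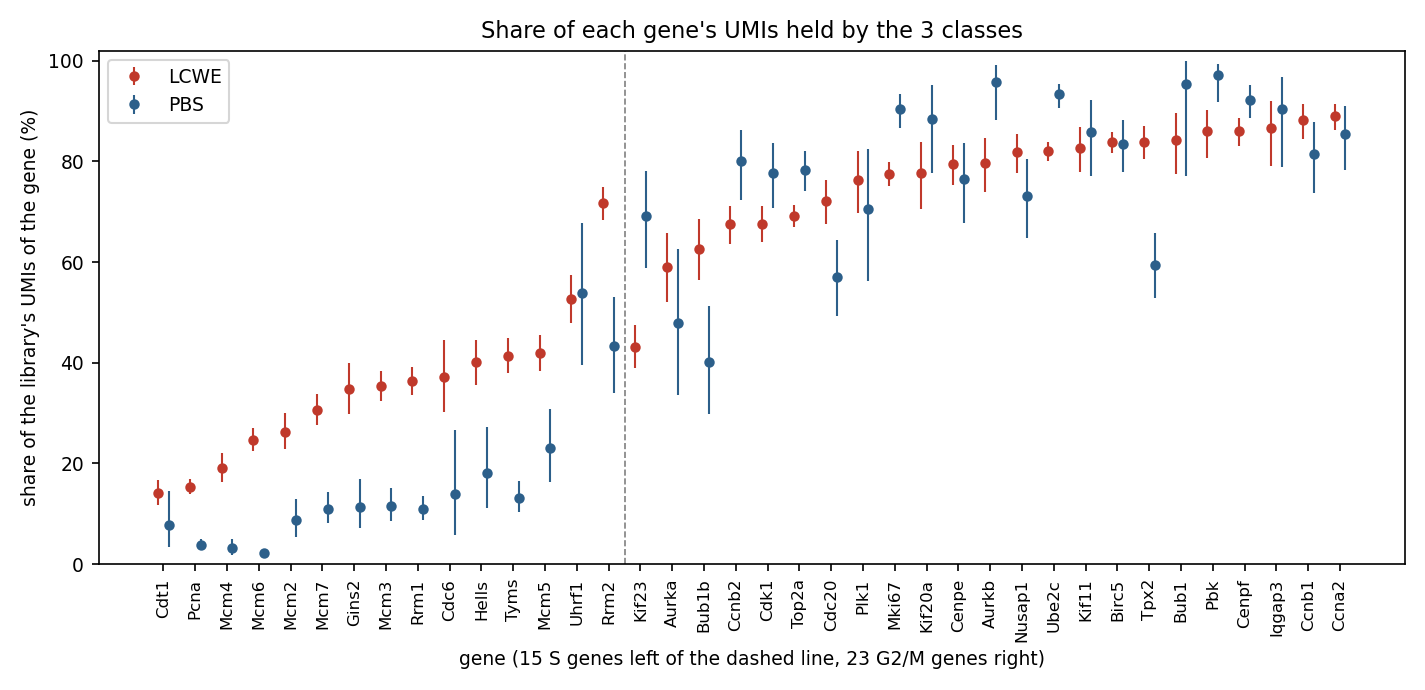
Percent of each gene's library UMIs that lay in the 3 classes (vertical axis) for the 15 S genes and the 23 G2/M genes, LCWE left of PBS, with exact 95% Clopper-Pearson intervals as bars. G2/M genes lie at 43.2% or above in LCWE and 40.2% or above in PBS, and most S genes lie below that.

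The promoters of the members also differed between the S genes and the G2/M genes. Whether a motif went with how gathered the UMIs of a gene were was not tested. RefSeq windows of 300 bases, 250 before and 50 after the transcription start (build GRCm38.p6), were at hand for 31 of the 38 genes, and no window was at hand for Pbk, Ccna2, Tpx2, Gins2, Aurkb, Kif20a and Mcm4. The letters searched on both strands were TTTGAA, the cell cycle homology region or CHR, and CCAAT, the box bound by NF-Y. For the core of an E2F site, 4 spellings were searched: TTGGCGC was the first, TTCCCGC was the second, TTCGCGC was the third and TTGCCGC was the last. The CHR was in 13 of 18 G2/M windows (72.2%) and 1 of 13 S windows (7.69%), against 18.1% of 27025 gene windows. The E2F core was in 3 of 18 G2/M windows (16.7%) and 10 of 13 S windows (76.9%), against 9.69% of all windows. CCAAT was frequent in both, in 15 G2/M windows (83.3%) and 9 S windows (69.2%), against 37.9% of all. CHR and CCAAT stood together in 12 G2/M windows (66.7%), against 7.12% of all. A match is a run of letters and not a site shown to be bound.

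The 150 bases before the start are printed 5′ to 3′ on the gene's strand for 4 G2/M genes and 3 S genes that carry the results above or show their motif plainly. Capitals mark the letters searched: CCAAT or its reverse ATTGG for NF-Y, TTTGAA or its reverse TTCAAA for the CHR, and the E2F core in either direction. Overlapping E2F matches on opposite strands form 1 run, as in Mcm6. Cdk1 lies on the minus strand at chr10:69352913-69353062, Cdc20, the activator of the anaphase-promoting complex, on the minus strand at chr4:118437344-118437493, Ube2c on the plus strand at chr2:164769779-164769928 and Top2a on the minus strand at chr11:99024190-99024339. Mcm6 lies on the minus strand at chr1:128359706-128359855, Rrm1 on the plus strand at chr7:102441545-102441694 and Uhrf1, which keeps DNA methylation through replication, on the plus strand at chr17:56303187-56303336.
Cdk1: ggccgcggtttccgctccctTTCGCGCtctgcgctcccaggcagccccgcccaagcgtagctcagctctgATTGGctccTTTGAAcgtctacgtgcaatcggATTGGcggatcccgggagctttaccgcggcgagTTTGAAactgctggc
Cdc20: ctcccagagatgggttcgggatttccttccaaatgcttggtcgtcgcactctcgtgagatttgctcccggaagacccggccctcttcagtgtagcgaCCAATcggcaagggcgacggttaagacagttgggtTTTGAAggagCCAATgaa
Ube2c: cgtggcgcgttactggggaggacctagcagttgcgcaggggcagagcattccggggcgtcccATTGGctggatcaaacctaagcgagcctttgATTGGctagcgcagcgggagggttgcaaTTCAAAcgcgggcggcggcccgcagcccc
Top2a: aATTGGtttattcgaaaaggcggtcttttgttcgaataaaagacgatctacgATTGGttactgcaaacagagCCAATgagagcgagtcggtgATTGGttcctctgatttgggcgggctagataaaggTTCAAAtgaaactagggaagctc
Mcm6: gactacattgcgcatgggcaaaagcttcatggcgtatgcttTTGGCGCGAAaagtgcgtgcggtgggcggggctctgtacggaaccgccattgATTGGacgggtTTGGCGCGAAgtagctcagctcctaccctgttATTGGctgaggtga
Rrm1: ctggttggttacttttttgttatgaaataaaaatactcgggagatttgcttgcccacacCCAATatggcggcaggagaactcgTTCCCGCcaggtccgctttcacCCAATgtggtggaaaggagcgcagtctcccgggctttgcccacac
Uhrf1: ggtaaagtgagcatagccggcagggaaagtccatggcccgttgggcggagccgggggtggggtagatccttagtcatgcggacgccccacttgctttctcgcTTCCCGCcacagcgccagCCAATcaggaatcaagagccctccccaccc
The 4 G2/M sequences hold the CHR once or, in Cdk1, at 2 places, beside CCAAT boxes. The 3 S sequences hold an E2F core and no CHR.

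Counting cells rather than molecules, 598 of 5091 LCWE cells (11.7%, 10.9 to 12.7) and 174 of 5386 PBS cells (3.23%, 2.77 to 3.74) carried 5 or more UMIs of the list. In the 3 classes this held for 127 of 128 LCWE cells and 20 of 20 PBS cells, and elsewhere for 471 LCWE cells (9.49%) and 154 PBS cells (2.87%). Counted on the G2/M genes alone, 193 LCWE cells (3.79%) and 29 PBS cells (0.538%) reached 5 UMIs, of which 67 in LCWE (1.35%) and 9 in PBS (0.168%) lay outside the 3 classes. At 20 or more G2/M UMIs, 20 LCWE cells and 1 PBS cell remained outside, beside 107 LCWE cells and 19 PBS cells inside.

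The threshold of 5 list UMIs separated no distinct group of cells. Exactly 4 UMIs were found in 289 LCWE cells and 180 PBS cells, and exactly 5 in 154 LCWE cells and 67 PBS cells. Of the cells with exactly 5, 54 in LCWE and 46 in PBS had no G2/M UMI, and of those with exactly 4, 126 in LCWE and 132 in PBS. Depth moved with the threshold: cells with 0 list UMIs had a median of 4389 UMIs in LCWE and 10190 in PBS, and cells with exactly 5 had 11615 in LCWE and 14505 in PBS. At 50 or more list UMIs, 105 of 119 LCWE cells and 17 of 18 PBS cells belonged to the 3 classes, none lacked G2/M UMIs, and the median cell expressed 27 of the members in LCWE and 27.5 in PBS. With each cell thinned to 2000 UMIs, 2 or more list UMIs were found in 14.97% of LCWE cells and 3.30% of PBS cells.

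Outside the 3 classes, the highest share of LCWE cells at 5 or more list UMIs was in the authors' VSMC/Fibro Transitional class, with 76 of 283 cells (26.9%, 21.8 to 32.4). Of the 283 cells, 13 (4.59%) reached 5 G2/M UMIs. The class was deep, with a median of 19942 UMIs over all its cells and 28780 over the 76, and after thinning 7.77% of the class kept 2 or more list UMIs. The macrophage class Mac1 followed with 59 of 282 LCWE cells (20.9%), 11 of them with 5 G2/M UMIs (3.90%), and then blood endothelial cells with 41 of 239 in LCWE (17.2%) and 6 of 217 in PBS (2.76%). Activated CD8 T cells gave 40 of 294 in LCWE (13.6%, of which 8 reached 5 G2/M UMIs), and fibroblasts 90 of 813 in LCWE (11.1%, 9.00 to 13.4) and 10 of 868 in PBS (1.15%, 0.554 to 2.11). In smooth muscle the count was 7 of 93 LCWE cells (7.53%) and 121 of 4141 PBS cells (2.92%), with 5 G2/M UMIs in 1 LCWE cell and 3 PBS cells. Depth differed between the libraries within these classes. After thinning, 2 or more list UMIs were found in 4.84% of LCWE and 2.21% of PBS fibroblasts, 8.98% of LCWE and 6.25% of PBS endothelial cells, and 3.26% of LCWE and 2.46% of PBS smooth muscle cells.

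Naive CD4 T cells gave 4 of 322 LCWE cells at 5 or more list UMIs (1.24%), none of them with 5 G2/M UMIs, and naive CD8 T cells 9 of 280 (3.21%). NK and NKT cells gave 17 of 281 and 22 of 318 LCWE cells without any at 5 G2/M UMIs. Regulatory and activated CD4 T cells gave 21 of 294 LCWE cells (7.14%), 4 of them with 5 G2/M UMIs. Among myeloid LCWE classes, eosinophils gave 2 of 142 cells (1.41%), Mono1 13 of 281 (4.63%) and Mono2 0 of 22, with an exact upper limit of 15.4%. Neutrophils gave 8 of 62 LCWE cells. The dendritic cell classes gave 17 of 195 in DC2, 3 of 59 in DC3 and 1 of 47 in pDC.

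The order of the classes by the count at 5 UMIs differed from that by level or after thinning. Lymphoid LCWE cells were shallow, with medians of 3397 UMIs in NK cells and 3640 in naive CD4 T cells, against 11494 in fibroblasts. After thinning, 2 or more list UMIs were found in 26.5% of activated CD8 T cells, 21.6% of NK cells, 17.7% of NKT cells, 14.5% of naive CD4 and 12.9% of naive CD8 T cells of the LCWE library. The same share was 14.3% in LCWE Mac1 cells, 7.77% in transitional cells, 4.84% in fibroblasts and 4.44% in eosinophils of that library. The list stood at 628 CPM in LCWE activated CD8 T cells, 467 CPM in NK cells, 326 CPM in naive CD4 T cells and 306 CPM in naive CD8 T cells, against 373 CPM in Mac1, 342 CPM in blood endothelial cells, 219 CPM in transitional cells and 167 CPM in fibroblasts of the LCWE library. LCWE neutrophils stood at 692 CPM and LCWE eosinophils at 224 CPM. The neutrophil level rested on few cells. Of the 62 LCWE neutrophils, 5 held 188 of the 208 G2/M UMIs of the class (90.4%). Single cells held 69, 96 and 111 of its 380 list UMIs.

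**Figure D4:**
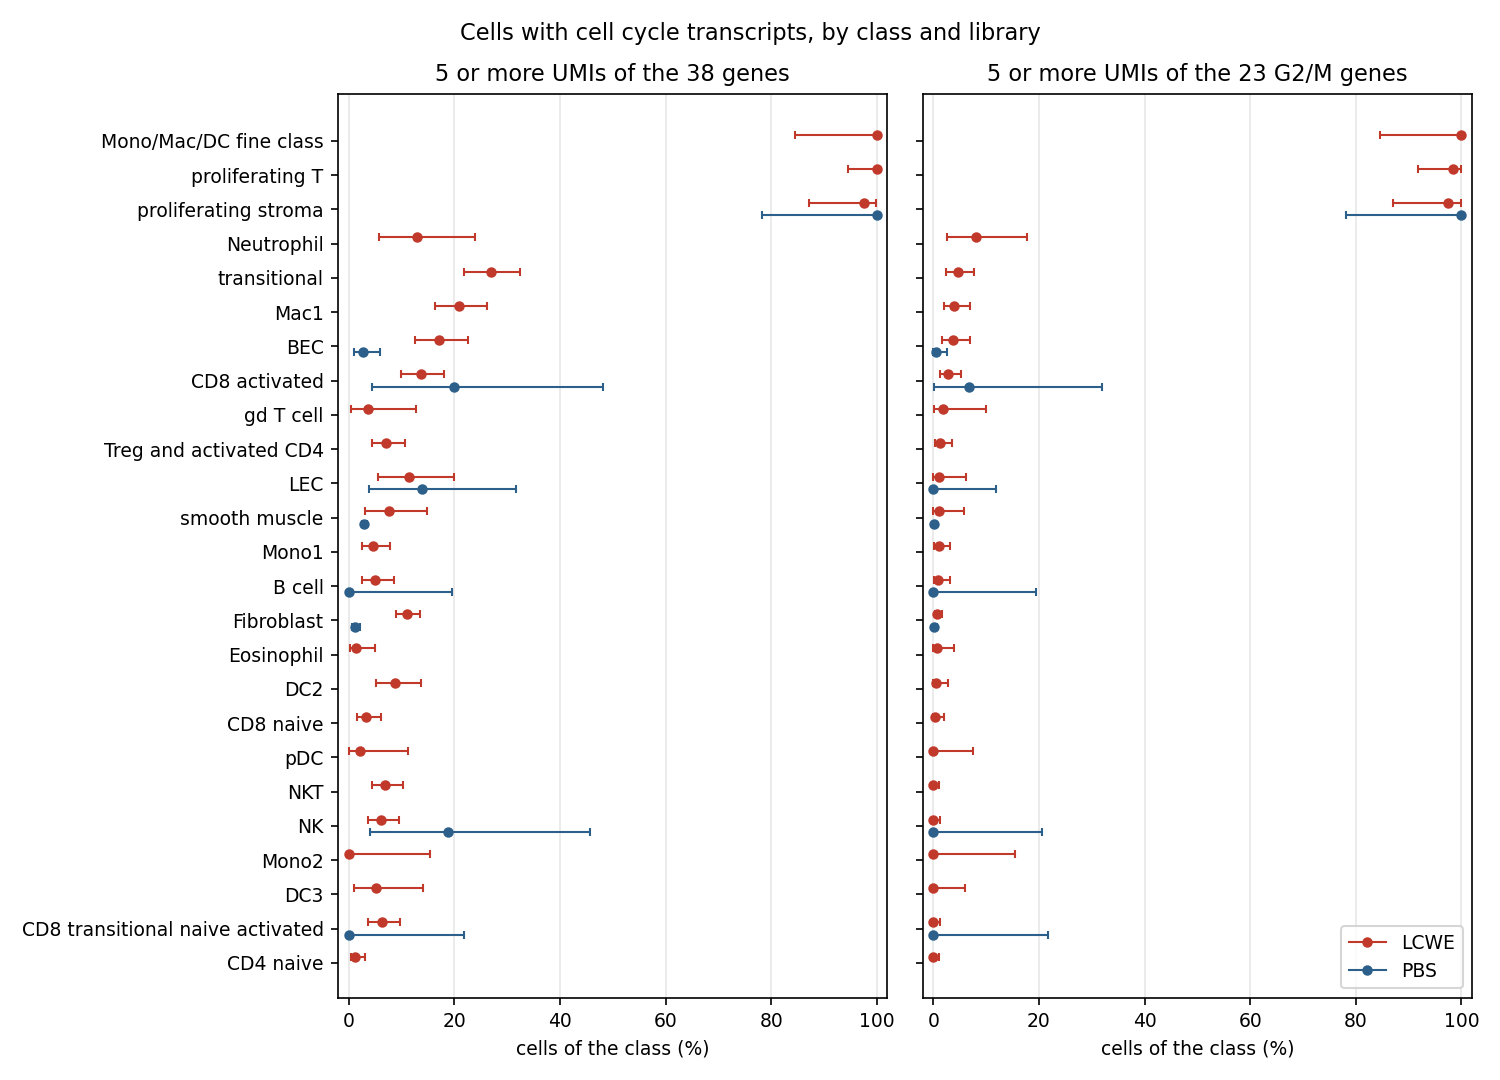
Percent of the cells of each authors' class with 5 or more UMIs of the 38 genes (left) or of the 23 G2/M genes (right), LCWE above PBS, with exact 95% Clopper-Pearson intervals as bars, for classes of at least 15 cells in a library. The 3 classes lie near 100%; of the other LCWE classes the transitional cells are highest on the list (26.9%) and the neutrophils on the G2/M genes (8.06%).

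A few cells outside the 3 classes carried as many mitotic UMIs as cells inside them. The 9 LCWE blood endothelial cells with 5 or more G2/M UMIs held 6, 6, 6, 18, 26, 26, 71, 91 and 134 of them. The cell with 134 carried 96 UMIs of endothelial markers, 1 of smooth muscle and 1 of fibroblast markers. Others were mixed: the cell with 71 also carried 104 smooth muscle and 130 fibroblast marker UMIs, and 4 of the 9 lay among the 5% of LCWE cells with the highest deposited doublet score. The part of doublets in these counts was not tested. In the LCWE library 5 of 62 neutrophils held 5, 12, 20, 73 and 78 G2/M UMIs, and the 3 highest carried 3960 to 6166 neutrophil marker UMIs. A lymphatic endothelial LCWE cell held 26 G2/M and 60 S UMIs with 290 lymphatic marker UMIs. In PBS, 1 Mac1 cell held 116 G2/M and 24 S UMIs with 220 monocyte and macrophage marker UMIs, the single PBS cell outside the 3 classes at 20 or more.

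Among the deposited cells, 0 carried a doublet call of the authors, and cells left out before deposit cannot be counted here. The 5% of cells with the highest score took 12 of 128 LCWE cells and 1 of 20 PBS cells of the 3 classes, and 49 of 471 LCWE cells and 17 of 154 PBS cells with 5 or more list UMIs elsewhere.

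Free RNA gives UMIs in cells that do not transcribe a gene, so the low level was read in cells under 5 G2/M UMIs. Such cells held 0.252 G2/M UMIs each among LCWE naive CD4 T cells, 0.291 among LCWE eosinophils and 0.217 in LCWE smooth muscle, against 0.100 in PBS smooth muscle and 0.0715 in PBS fibroblasts. LCWE fibroblasts (0.325) and endothelial cells (0.394) lay near these LCWE values, and transitional cells above them (0.752) with deeper cells. LCWE proliferating T cells held 8.62 Top2a and 9.11 Ube2c UMIs per cell, LCWE fibroblasts 0.0566 and 0.0578, and LCWE naive CD4 T cells 0.0870 and 0.0186. The part of free RNA in these levels was not tested. A UMI of Cdk1 was present in 5.04% of LCWE fibroblasts and 0.346% of PBS fibroblasts, against 1.55% of LCWE naive CD4 T cells. The median depth among these cells under 5 G2/M UMIs was 11466 UMIs in LCWE fibroblasts and 6215 in PBS fibroblasts, against 3640 in LCWE naive CD4 T cells. For transitional cells the share was 18.7% and for LCWE blood endothelial cells 7.95%, against 0.461% of PBS blood endothelial cells.

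Within a class, LCWE and PBS were compared for the 4 broad classes that reached 50 cells in each library. The proliferating stroma is a broad class of its own, so the endothelial, fibroblast and smooth muscle values leave out its cells. The proliferating T cells, in contrast, are counted within the class of T, NK and innate lymphoid cells. Endothelial cells had the largest G2/M ratio of the 4: 535 G2/M UMIs or 139 CPM in LCWE against 43 UMIs or 21.0 CPM in PBS, a ratio of 6.60 (4.83 to 9.23). Of these, 410 UMIs in LCWE (76.6%) came from 10 of 327 cells, and 6 of 43 in PBS from 1 of 246 cells. The S genes differed less, with a ratio of 1.31 (1.15 to 1.50). Cells under 5 list UMIs gave an endothelial G2/M ratio of 1.65 (1.07 to 2.61) and an S ratio of 0.812 (0.684 to 0.964). That subset is set by the list itself and leaves out 51 of 327 LCWE cells and 10 of 246 PBS cells, so its values are given only as a description. Blood endothelial cells held 480 G2/M UMIs in LCWE and 37 in PBS (ratio 7.27, 5.20 to 10.5), and lymphatic endothelial cells 55 in LCWE and 6 in PBS (3.95, 1.70 to 11.2).

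Of the 26 members measured in endothelial cells (at least 20 UMIs over both libraries and 3 expected in the shallower one), 16 were at least 2-fold higher in LCWE and 0 at least 2-fold lower. Over all 10925 genes measured there, 10.2% were at least 2-fold higher and 5.66% at least 2-fold lower. The median member stood at 1.50 on the log2 scale, against 0.09 for all genes. By phase, 10 of 12 measured G2/M genes and 6 of 14 S genes were higher. Mki67 gave 57 UMIs in LCWE and 3 in PBS, a ratio of 10.1 (3.28 to 50.3), and Top2a 67 UMIs in LCWE and 7 in PBS, a ratio of 5.08 (2.33 to 13.1). Ube2c gave 57 UMIs in LCWE and 1 in PBS, a ratio of 30.2 (5.21 to 1215), and 56 of the LCWE UMIs came from 8 blood endothelial cells. Birc5 gave 48 UMIs in LCWE and 0 in PBS, at least 8.49-fold higher against a floor of 3 UMIs over the class. Hells, a chromatin remodeller active in replication, gave 35 UMIs in LCWE and 1 in PBS (18.6, 3.12 to 754). Pcna went the other way, at 23.6 CPM in LCWE and 34.7 CPM in PBS (0.680, 0.493 to 0.941).

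Fibroblasts outside the proliferating stroma showed a smaller difference in the same direction. Of the stromal cells left out, 31 of 41 in LCWE and 7 of 15 in PBS carried the Dcn mark alone, as set below. These had a median of 60 G2/M UMIs in LCWE and 200 in PBS, so the ratio depends on where the clusters placed dividing cells. The values that follow are for the fibroblast class alone. The G2/M genes of this class gave 353 UMIs or 35.4 CPM in LCWE and 70 UMIs or 11.5 CPM in PBS, a ratio of 3.07 (2.37 to 4.03). Its S genes gave a ratio of 1.18 (1.07 to 1.30). Unlike in endothelium, most of the G2/M UMIs were spread thinly: the 6 LCWE fibroblasts with 5 or more G2/M UMIs held 91 of the 353 (25.8%). Fibroblasts under 5 list UMIs, a subset set by the list in the same way, gave a G2/M ratio of 2.18 (1.60 to 3.01). These LCWE fibroblasts lie near the level of the LCWE naive CD4 T cells given above, and the part of free RNA in the ratio was not tested.

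Of 23 members measured in fibroblasts, 10 were at least 2-fold higher in LCWE and 0 at least 2-fold lower, where 10.4% of 12357 genes were higher and 7.31% lower. The median member was 0.70 on the log2 scale, against 0.04 for all genes, and 6 of 8 G2/M genes and 4 of 15 S genes were higher. Cdk1 gave 48 UMIs in LCWE and 3 in PBS (9.75, 3.14 to 48.9), and Top2a 46 in LCWE and 5 in PBS (5.61, 2.24 to 18.1). Mcm6 gave 173 UMIs in LCWE and 52 in PBS (2.03, 1.48 to 2.82). Mcm7 stood at 5.81 CPM in LCWE and 9.37 CPM in PBS (0.620, 0.423 to 0.910), so subunits of a single helicase differed in direction.

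Smooth muscle cells were few in LCWE, and the comparison there is shallow. The proliferating stroma is left out here too. In it, 2 of 41 LCWE cells and 7 of 15 PBS cells carried the Myh11 mark alone, as set below. The G2/M genes gave 26 UMIs in the 93 LCWE cells and 430 UMIs in the 4141 PBS cells, or 29.8 CPM in LCWE and 8.04 CPM in PBS, a ratio of 3.70 (2.39 to 5.50). Of the 26 LCWE UMIs, 6 came from 1 cell. LCWE smooth muscle cells under 5 G2/M UMIs held 0.217 each, against 0.252 in LCWE naive CD4 T cells. The part of free RNA in the ratio was not tested. Only 7 members were measured, all of them S genes, and 0 of the 23 G2/M genes. Of the 7, 2 were at least 2-fold higher in LCWE and 0 lower, where 5.63% of 10068 genes were higher and 4.58% lower. Rrm1 stood at 26.3 CPM in LCWE and 9.15 CPM in PBS (2.88, 1.81 to 4.37) and Tyms at 17.2 CPM in LCWE and 6.75 CPM in PBS (2.54, 1.41 to 4.25). Cdk1 had 0 UMIs in the 93 LCWE cells.

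T, NK and innate lymphoid cells ran opposite, with 1010 CPM in LCWE and 1810 CPM in PBS (ratio 0.558, 0.518 to 0.602). This class includes its proliferating cells, while the endothelial, fibroblast and smooth muscle classes leave out the proliferating stroma, so unlike sets are compared. The proliferating stroma itself had a ratio of 0.505, also below 1. Of 32 members measured, 0 were at least 2-fold higher and 12 at least 2-fold lower in LCWE, where 4.43% of 7860 genes were higher and 3.7% lower. The proliferating T cells made up 65 of 2198 LCWE cells (2.96%, 2.29 to 3.75) and 4 of 75 PBS cells (5.33%, 1.47 to 13.1), and the 4 PBS cells held 549 of the 736 list UMIs of the PBS class. Without the proliferating T cells, an alternative chosen after the data were seen, the ratio was 0.791 (0.683 to 0.921), nearer to 1 and still below it. Only 12 members were then measured, of which 0 were at least 2-fold higher and 0 at least 2-fold lower, where 4.29% of 7266 genes were higher and 3.47% lower.

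**Figure D5:**
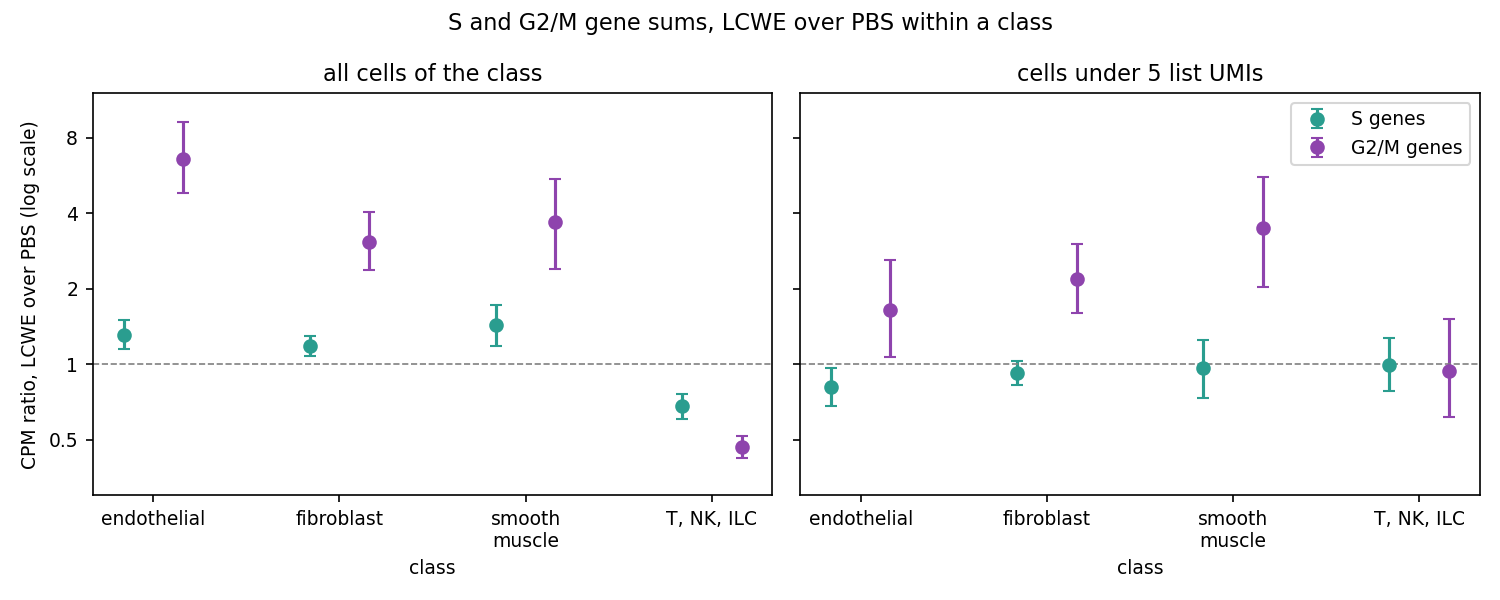
CPM of LCWE over PBS (log axis, dashed line at 1) for the S genes and the G2/M genes in 4 broad classes, for all cells of the class (left) and for cells under 5 list UMIs (right), a subset set by the list itself, with exact conditional 95% intervals as bars. The G2/M ratio is above 1 in endothelial cells, fibroblasts and smooth muscle in both panels, with the endothelial ratio at 6.60 for all cells and 1.65 for cells under 5 list UMIs. The proliferating stroma is in none of the 4 classes, whereas the proliferating T cells are in the lymphoid class.

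The authors' fine name places the proliferating stromal cells in VSMC_2, the name of the transitional class of smooth muscle and fibroblasts. Their cells carried marks of several lineages. Fibroblast markers gave a median of 654 UMIs per LCWE cell and 85 per PBS cell, and smooth muscle markers 11 per LCWE cell and 9 per PBS cell. Marks were set at 10 or more UMIs of Dcn (decorin, of fibroblasts, and high in transitional cells too) or of the endothelial markers together, and 5 or more of Myh11 (smooth muscle myosin), values chosen after the data were seen. In LCWE, 31 of 41 cells carried the Dcn mark alone, 5 the endothelial mark alone and 2 the Myh11 mark alone. In PBS, 7 of 15 cells carried the Dcn mark alone, 7 the Myh11 mark alone and 1 the endothelial mark. The 6 LCWE cells with the endothelial mark, 1 of which also carried the Dcn mark, were rich in mitotic UMIs. They held 124 to 255 G2/M UMIs and 134 to 265 list UMIs each. A further measure, 10 or more UMIs of Acta2, smooth muscle actin, was met by 19 of 41 LCWE cells and 7 of 15 PBS cells. Of the 15 PBS cells, 1 carried 1062 UMIs of erythroid markers. This class was 41 of 1557 stromal and endothelial cells in LCWE (2.63%, 1.90 to 3.56) and 15 of 5270 in PBS (0.285%, 0.159 to 0.469). Smooth muscle made up 4141 of those PBS cells and 93 of those LCWE cells, so the shares mix cell composition with division.

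Among the 65 LCWE proliferating T cells, 53 had a Cd3e UMI, 38 a UMI of Cd8a or Cd8b1, 13 of Cd4 and 11 of Foxp3, the factor of regulatory T cells. Ncr1, an NK cell receptor, was present in 6 of them. Marks of other lineages were found too. Of the 65 cells, 3 carried 20 or more monocyte and macrophage marker UMIs, 1 of them 298 with 0 of T cell markers. Another carried 36 B cell marker UMIs and 0 of T cell markers. The 11 cells with Foxp3 had a median of 57 S UMIs and 39 G2/M UMIs, and the 38 with Cd8 had 27.5 and 51. These groups overlap, since some cells with Foxp3 also had a Cd8 UMI. Of the 4 PBS cells, 3 had a Cd3e UMI, 2 a Cd8 UMI, 1 a Cd4 UMI and 1 an Ncr1 UMI. In the LCWE Mono/Mac/DC class, 14 of 22 cells carried 10 or more UMIs of C1qa, a complement gene of tissue macrophages, and 3 carried 0, while Flt3, a dendritic cell receptor, was found in 1. Monocyte and macrophage markers gave a median of 126.5 UMIs per cell there (3 to 836). Of these LCWE cells, 1 also carried 586 fibroblast marker UMIs and 1 carried 227 smooth muscle marker UMIs. The part of doublets in these classes was not tested. The single PBS cell carried 25 monocyte and macrophage marker UMIs, 22 of dendritic cells and 47 of endothelium.

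Other genes of the cell cycle, in 7 lists that share no gene with the 38, were read in the same cells against the remaining cells of the broad class, as a description. In LCWE proliferating stroma, set against 1516 other stromal and endothelial cells, 28 of 29 measured mitotic genes were at least 2-fold higher, as were 18 of 19 replication genes, 7 of 7 histone genes and 8 of 13 pocket protein, E2F and mitotic factor genes. Over all 11544 genes measured, 5.73% were higher and 9.73% lower. Stmn1, a regulator of microtubules, stood at 730 CPM in the proliferating cells and 45.4 CPM in the rest, and Hist1h2ap, a replication-dependent histone, at 115 and 1.56 CPM. Of the G1 cyclins and kinases, 3 of 8 were higher. Cdk4, a kinase of the G1 phase, had a ratio of 1.76 and Ccnd2, cyclin D2, of 0.655. Of the inhibitors of cyclin-dependent kinases, 2 of 6 were higher and 1 lower. Cdkn1c, or p57, stood at 34.7 CPM in LCWE proliferating stroma and 174 CPM in the rest, while Cdkn1a, or p21, had a ratio of 1.02. Of the p53 targets and damage genes, 3 of 13 were higher.

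Against the remaining cells of their broad class, LCWE proliferating T cells had 32 of 33 mitotic, 20 of 21 replication, 7 of 8 histone and 6 of 8 G1 genes at least 2-fold higher, where 14.7% of 9738 genes were higher and 7.42% lower. Ccnd2 (0.469) was lower by more than 2-fold, and Cdkn1b, or p27, had a ratio of 0.502. The LCWE Mono/Mac/DC cells gave 15 of 16 mitotic, 11 of 13 replication and 4 of 4 histone genes higher, where 8.96% of 8071 genes were higher and 8.75% lower. In PBS proliferating stroma, Stmn1 stood at 2148 CPM against 10.1 CPM in the other stromal and endothelial cells, most of which were smooth muscle. Of the inhibitors of cyclin-dependent kinases, 4 of 5 measured were at least 2-fold higher in PBS proliferating stroma and 0 lower (median log2 difference 2.38), where 13.6% of 7921 genes were higher and 8.72% lower. Cdkn1a stood at 385 CPM in PBS proliferating stroma against 155 CPM in the rest, and Cdkn2d, of the INK4 family, at 298 CPM against 29.1 CPM. Cdkn1c stood at 133 CPM against 25.7 CPM, with 20 of its 38 UMIs in 1 of the 15 cells. In LCWE it was lower in the proliferating cells, as given above. The remaining cells differ between the libraries, mostly fibroblasts, transitional and endothelial cells in LCWE and mostly smooth muscle in PBS.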

How the data were processed

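Raw UMI counts per gene and cell were deposited by the authors, 1 table per library and 1 joint table with the authors' cell classes, doublet scores and percent of mitochondrial UMIs. Per the submitters' processing notes, Cell Ranger 3.0.2 and mm10 were used. The joint table equalled the single-library tables in all 293335046 entries (0 differed), and the deposited mitochondrial percent was at most 14.99 in either library. Levels are list UMIs over all UMIs of a class, as counts per 1000000 UMIs (CPM). Shares of cells are at 5 list UMIs, with 3, 10 and thinning to 2000 UMIs (seed 1) as alternatives. Ratios were taken for broad classes that reached 50 cells in each library. A member was measured with at least 20 UMIs over both libraries and, a rule added after seeing the data, at least 3 expected in the shallower library; sums under 3 were raised to 3, and 2-fold was called. The ratio calls were tested on simulated data. The 38 members, the other lists and the class names were chosen with earlier results of these data known. All 38 may be named; of each other list, up to 4 genes with the most UMIs in cells with 5 or more list UMIs. Among the deposited cells, 0 carried a doublet call of the authors, and no cells were removed here. Python 3.11.15, numpy 2.4.6, scipy 1.17.1, pandas 2.3.3 and matplotlib 3.10.9 were used.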

Additional observations from a re-analysis of the deposited data

Results flagged for a closer look

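LCWE and PBS differed in opposite directions in different classes, and none of these contrasts between classes was tested. The lymphoid class includes the proliferating T cells, while the endothelial, fibroblast and smooth muscle classes leave out the proliferating stroma. The contrast therefore sets unlike sets of cells side by side. The proliferating stroma itself had a list ratio of 0.505. For the 38 genes together, the LCWE over PBS ratio was 0.558 in the class of T, NK and innate lymphoid cells. It was above 1 in endothelial cells, fibroblasts and smooth muscle. For the G2/M genes alone it was 0.466 in this lymphoid class, and for the S genes 0.679, again above 1 in the other 3 classes. The PBS value of these lymphoid cells rests on 75 cells, of which 4 proliferating ones held 549 of 736 list UMIs.

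Single genes were lower in LCWE lymphoid cells and higher in LCWE endothelial cells, fibroblasts or both. Their lymphoid ratios were 0.540 for Top2a, 0.395 for Birc5, 0.303 for Ccnb2 and 0.407 for Ube2c, all of them higher in LCWE endothelial cells and fibroblasts. Cenpf (0.340) and Tpx2 (0.425) were higher in LCWE endothelial cells, Mcm6 (0.688) and Uhrf1 (0.385) in LCWE fibroblasts, and Tyms (0.484) in LCWE endothelial cells and smooth muscle. Mcm7 was lower in LCWE lymphoid cells (0.510) and LCWE fibroblasts (0.620) and higher in LCWE endothelial cells. These lymphoid ratios include the proliferating T cells. Without those cells, 0 of the 12 members then measured were at least 2-fold lower in the LCWE lymphoid class.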

How the results depend on the processing

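The share of cells at the threshold (11.7% in LCWE, 3.23% in PBS) was 28.0% in LCWE and 15.2% in PBS at 3 UMIs, 4.81% and 0.706% at 10 UMIs, 3.79% and 0.538% on the G2/M genes, 9.55% and 2.21% without Pcna, and 3.25% and 0.428% after thinning at 5 UMIs, LCWE before PBS in each pair; thinned at 2 UMIs it was 14.97% in LCWE. LCWE lay above PBS under each of these. The list level over all cells was 447 CPM in LCWE and 149 CPM in PBS as the mean share per cell, 305 and 57.8 on G2/M genes, 295 and 108 on S genes, and 551 and 144 without Pcna; in PBS it was 171 CPM without cells over 10% mitochondrial UMIs. On the log2 scale the endothelial list ratio was 0.56 by mean share, 2.72 on G2/M genes, 0.39 on S genes, 1.20 without Pcna and -0.15 without cells at 5 or more list UMIs (-0.38 to 0.081, an interval that includes 0). That last alternative leaves out cells by the value compared, so its change of sign is a description only. For fibroblasts it was 1.62, 0.24, 0.62 and 0.037 on G2/M genes, on S genes, without Pcna and without those cells, and for smooth muscle 1.89 on G2/M genes and 0.22 without those cells. For T, NK and innate lymphoid cells it was -0.59 by mean share, -1.10 on G2/M genes, -0.56 on S genes, -0.031 without cells at 5 or more list UMIs and -0.34 without the proliferating T cells, an alternative chosen after seeing the data. With a minimum of 50 UMIs, 4 members passed 2-fold upward in LCWE endothelial cells and 6 in LCWE fibroblasts. In smooth muscle 7 passed, with no minimum or, chosen after seeing the data, no minimum of expected UMIs. The members measured and the share of all genes past 2-fold were not recorded under these settings. Whether such a count reflects the difference or the number of genes measured cannot be told, so these counts are a description only. Without the proliferating T cells, 0 lymphoid members passed 2-fold downward, with 12 measured. Leaving out shared barcodes, also chosen after seeing the data, moved neither share of cells beyond its interval. Apart from the thinned shares and those that leave genes or cells out by construction, the cause was not tested. No paired analysis was possible because each group has 1 library. The number of cells limits the smooth muscle contrast (93 LCWE cells) and the PBS immune classes (75 T, NK and innate lymphoid cells).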
